A study of Mus musculus with 12 samples.

Results

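Gene expression in zone III of the embryonic mouse tibia was compared with that in zone II, the neighbouring zone farther from the bone. The comparison used the 4 arrays whose source name is zone III and the 4 whose source name is zone II, 8 of the 12 arrays of the series, and every difference is given as zone III minus zone II. The tibiae came from CD1 mouse embryos at embryonic day 15.5 and were cut by hand into 3 zones. No treatment or genetic change separates the groups, so both zones come from the same untreated animals and differ only in where the bone was cut. RNA of a zone was pooled within a litter according to the study's methods, so an array stands for a pool of embryos. The labels do not tie the array letters A to D to litters, and p-values measure the spread between these arrays. A zone is a block of tissue that holds several cell types, and in such bulk samples fewer cells of a type and less RNA per cell cannot be told apart.

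Long bones form on a cartilage model. Chondrocytes divide, then stop and enlarge into prehypertrophic and hypertrophic cells, which secrete type X collagen and let their matrix mineralize. At the border with the marrow the mineralized cartilage is opened by collagenases and by osteoclasts, the multinucleated cells that dissolve mineral with acid, while blood vessels bring in osteoblasts that lay down bone.

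The values are signal intensities of 45101 probe sets on Affymetrix MOE 430 2.0 arrays, scaled by the authors to a common mean. A probe set was tested where its mean signal reached 50 in zone II or zone III, which left 21443 probe sets and 11492 genes named by 1 symbol. A gene is described by its probe set with the highest mean signal. A gene is said to rise or fall when its limma p, adjusted by Benjamini-Hochberg over all probe sets tested, was under 0.05 and its change was at least 1.5-fold. Signals from different probe sets are not compared with each other.

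Arrays correlated at 0.949 to 0.975 within zone II and 0.973 to 0.980 within zone III, against 0.793 to 0.844 between the zones. These values are Pearson's r of log2 signals across the tested probe sets, which are not independent replicates. Array A of zone II lay nearest to zone III for many of the genes that rose, as the highest zone II array for 45.4% of them, against 14.4% to 24.7% for the other arrays of that zone. For the genes that fell it was array D that lay nearest, as the lowest zone II array for 38.8%, against 24.5% for array A. The summed signal of 20 osteoclast genes was 3844 on zone II array A and 2373 to 2657 on the others, against 19885 to 23618 in zone III. The 6 tested erythroid genes summed to 4684 on zone II array A and 1507 to 1772 on the others, and to 4814 on zone III array A and 2691 to 2838 on the others. Of these 6 genes 1 rose and 1 fell, and 3 rose and 1 fell without zone II array A. With no filter none of the 17 erythroid genes with a named probe set rose and 1 fell. Without zone II array A, 2942 genes rose and 1637 fell, close to the counts with it given next, and 4346 of 4557 called genes kept their call. The 3' to 5' signal ratio of the Gapdh control was 1.25 to 1.51 in zone II and 1.98 to 2.28 in zone III, and that of the actin control was 2.63 to 3.23 and 1.70 to 2.02; the part of either ratio in the results was not tested.

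In zone III 2914 genes rose (25.4% of those tested) and 1643 fell (14.3%), so that 39.7% passed in either direction. At the level of probe sets 5033 rose (23.5%) and 2871 fell (13.4%). Large changes were more often rises: 204 genes rose and 43 fell at least 10-fold. The genes that rose were often faint in zone II, as 971 of 2914 had a mean signal under 50 there, while 214 of the 1643 genes that fell had a mean under 50 in zone III. Among genes that reached a mean of 500 in the higher zone, 649 rose and 877 fell. Arrays whose settings files carry the same clock time of hybridization were grouped, and each of the 3 groups was taken as a fluidics run. The sample labels do not name such runs. Of the 4557 called genes 4530 kept their direction in each of these 3 runs. These genes were called on the same arrays. No overlap between the zones was found for 4710 of the probe sets that rose and 2706 of those that fell. Such probe sets keep their direction in any run, so the count adds no separate support. The balance of rises and falls depends on how the arrays are scaled. The share of calls that were rises was 63.9% as deposited, 55.9% with quantile normalization, 43.3% after centring each array on its median and 89.1% after centring on ribosomal protein genes, while the median log2 difference of all genes was 0.09, −0.02, −0.15 and 0.54. Among 1778 called genes with further probe sets, 1305 had another that passed in the same direction, and 22 genes had probe sets that passed in both. Among the named genes with several probe sets, 6 that did not pass had another probe set that did (Atp6v1a, Col1a2, Col3a1, Hspa5, Ibsp and Tnfrsf11a), and 6 that passed had no other that did (Atp6v0a1, Cspg4, Egr3, Mef2d, Pdia6 and Tgfb1). A gene faint in both zones was not tested, and one faint in zone II was tested only where it was higher in zone III, so the shares of list members that rose are of tested members.

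Of the 5 genes chosen to mark the comparison, 3 rose and 2 fell. Mmp9, the gelatinase of osteoclasts, had a signal of 872, 321, 238 and 265 on zone II arrays A to D and 5047, 4242, 4475 and 4295 on zone III arrays A to D. It was 12.4-fold higher in zone III (log2 difference 3.63 ± 0.36 SE, limma adjusted p = 3.7e-06). Acp5, the tartrate-resistant acid phosphatase of the same cells, read 237, 151, 116 and 160 in zone II and 2760, 2171, 2493 and 2023 in zone III. Every zone III array of both genes lay above every zone II array. Tie1, an endothelial receptor kinase, was near the bottom of the scale in zone II at 1.67, 1.57, 2.40 and 0.83 and reached 98.5, 107, 88.9 and 63.0 in zone III. Sox9, the transcription factor that chondrocytes need, ran the other way, at 813, 818, 679 and 581 in zone II and 84.3, 65.7, 90.3 and 82.5 in zone III, a fall of 3.16 ± 0.18 SE on the log2 scale (limma adjusted p = 4.1e-08). Epyc, which encodes the cartilage proteoglycan epiphycan, had 6322, 5582, 5376 and 5109 in zone II and 394, 279, 424 and 520 in zone III, a 14.2-fold fall.

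**Figure D1:**
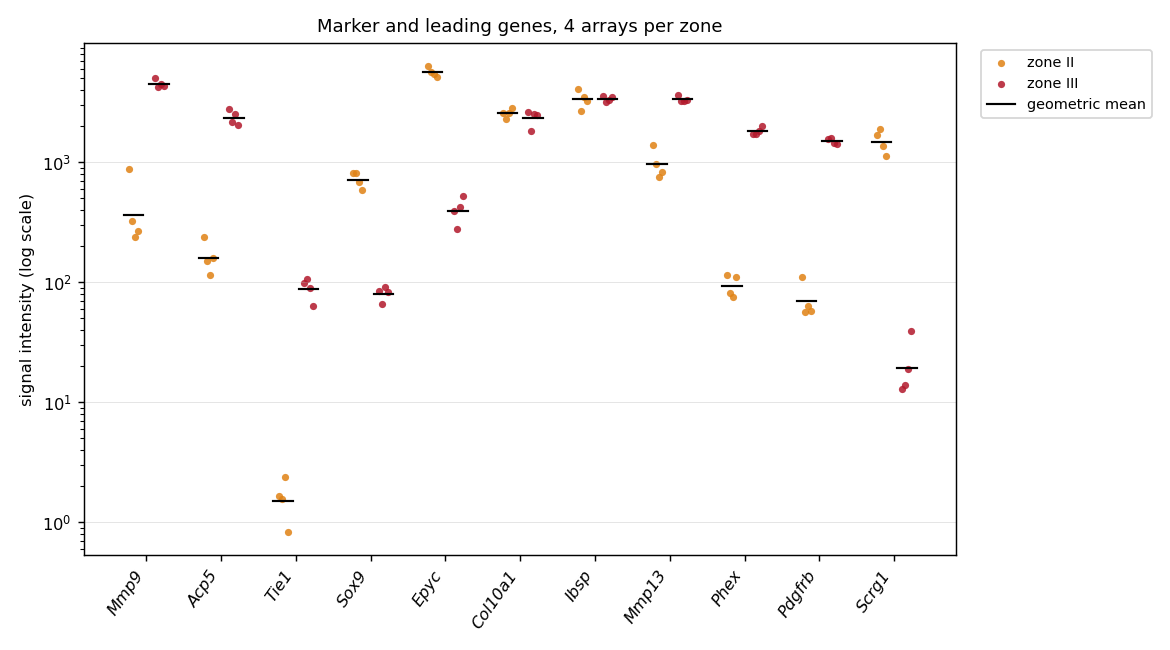
Signal intensity (log axis) of the 5 marker genes and 6 further genes, where dots are single arrays, 4 in orange for zone II and 4 in red for zone III, and bars are geometric means. The zones do not overlap for 9 of the 11 genes, while the dots of Col10a1 and of the brighter Ibsp probe set overlap; levels are to be compared within a gene.

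Among all genes, ranked by the difference of log2(signal + 16), the 15 largest rises without overlap of arrays were Atp6v0d2, Slc37a2, Col22a1, Hp, Ocstamp, Cd68, Itgb3, Clec4a2, Ifi202b, Pdgfrb, Snx10, Phex, Ccr1, Spon1 and Dusp4. Atp6v0d2, a subunit of the osteoclast proton pump, read 62.9, 45.8, 14.7 and 14.2 in zone II and 1612, 1611, 1389 and 1363 in zone III. Hp, which encodes the haemoglobin-binding protein haptoglobin, read 1.75 to 6.08 in zone II and 317 to 480 in zone III. Spon1, an extracellular matrix protein first known from the nervous system, went from 4.20 to 30.9 up to 425 to 513. Signals of a few units have no firm zero, and folds against them are uncertain in size.

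The 15 largest falls without overlap of arrays, by the same ranking, were Scrg1, Kctd4, Prelp, Rlbp1, Calml3, Rtl3, Epyc, Cnga1, Car12, Phlda2, Ncmap, Pak3, Meltf, S100b and Slc26a2. Scrg1, a gene of chondrocytes, had 1680, 1896, 1351 and 1126 in zone II and 12.9, 14.0, 18.8 and 39.4 in zone III, a 77.7-fold fall (limma adjusted p = 1.9e-08). Rlbp1, best known as a retinal carrier protein of the eye, fell 34.3-fold from 520 to 824 in zone II, and Cnga1, the ion channel of rod photoreceptors, from 212 to 393 down to 4.77 to 8.28. Calml3, a calmodulin-like protein, read 1517 to 1769 in zone II and 56.7 to 85.5 in zone III. Genes with overlapping arrays were left out of both rankings, so the lack of overlap in these genes was set by the choice.

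**Figure D2:**
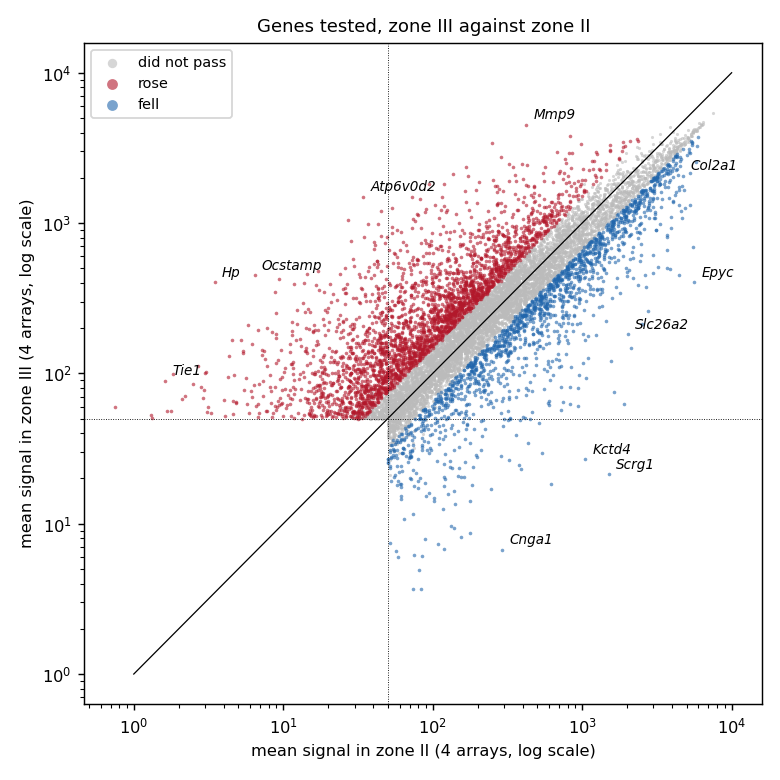
Mean signal of each of the 11492 genes tested in zone II (horizontal) and zone III (vertical), both on log axes, each over 4 arrays, with genes that rose in red, genes that fell in blue and the others in grey; dotted lines mark the floor of 50. Rises extend far to the left of the floor in zone II, while falls lie mostly at high signals.

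Genes of the cartilage matrix fell as a group. Of 21 tested members 19 fell and none rose, with a median log2 difference of −2.03, against 0.09 over all genes. Acan, the large proteoglycan aggrecan, read 4047, 4102, 4027 and 4024 in zone II and 1446, 1219, 1610 and 1314 in zone III, a fall of 1.54 ± 0.14 SE on the log2 scale. Prelp, a leucine-rich matrix protein, fell 30.3-fold, and Ucma, a matrix protein of cartilage, fell by 4.44 on the log2 scale. Cytl1 and Cnmd, the latter encoding the vessel-repelling protein chondromodulin, fell by 3.30 and 3.01. Col2a1, the main collagen of cartilage, fell less, 2.31-fold from 4731 ± 397 to 2064 ± 358 (SD, n = 4 arrays). Chad and Fmod, a pair of small matrix proteins, lay at −0.03 and −0.06 and did not pass. The summed signal of the list was 68036 to 75267 in zone II and 17635 to 22572 in zone III, and 17 members fell with ribosomal protein centring.

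The transcription factors of chondrocytes followed, with 10 of 13 lower and 2 higher (median −1.20). Sox5, a partner of Sox9, read 344 to 433 in zone II and 19.0 to 39.3 in zone III, and Sox6, Shox2 and Runx3 fell by 1.60, 1.44 and 1.70. Foxa3, a forkhead factor of hypertrophic cells, fell by 2.45. Mef2d and Zfp219 rose by 0.70 and 0.60 but not with quantile normalization or median centring, and Mef2d lay at −0.0449 by the median of its probe sets, while Mef2c, a driver of hypertrophy, lay at −0.20 and did not pass.

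Genes of prehypertrophic and hypertrophic chondrocytes were mostly lower as deposited. Of 12 tested members 9 fell and 1, Bmp2, rose (median −1.12). With ribosomal protein centring 6 fell and 2 rose (median −0.66). Ihh, the signal by which prehypertrophic cells control growth, read 743, 623, 608 and 811 in zone II and 191, 185, 212 and 261 in zone III, a 3.29-fold fall. Fgfr3, the receptor that restrains growth, fell 3.48-fold, Scin and Slc38a3 fell by 2.21 and 2.27, and the channel gene Panx3 fell 1.79-fold from 5045 ± 231 to 2820 ± 93.2. Panx3 did not pass with quantile normalization or with ribosomal protein centring. Col10a1, which encodes type X collagen, had 2565, 2275, 2569 and 2831 in zone II and 2596, 1814, 2519 and 2475 in zone III, so that the zones overlapped and no change was found (−0.13 ± 0.15 SE, limma adjusted p = 0.48). For Ibsp, the bone sialoprotein of late hypertrophic cells and osteoblasts, the probe sets disagreed. The brighter one overlapped between zones, at 2688 to 4033 and 3193 to 3568, while the other rose by 2.45, from a mean of 519 to 2839 (limma adjusted p = 8.1e-05). Bmp2 read 158 to 265 in zone II and 449 to 576 in zone III. Of the 11 hedgehog genes 4 rose and 3 fell. Below the ligand, Ptch1, its receptor and target, fell 1.58-fold and the co-receptor Cdon fell 2.62-fold. Hhip and Gas1, a decoy receptor and a co-receptor, rose 7.56-fold and 5.70-fold, although Gas1 read 343 on zone II array A against 38.2 to 68.1 on the other arrays of the zone. Gli1, another target, read 75.2 to 86.5 in zone II and 81.6 to 87.2 in zone III, which overlap.

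**Figure D3:**
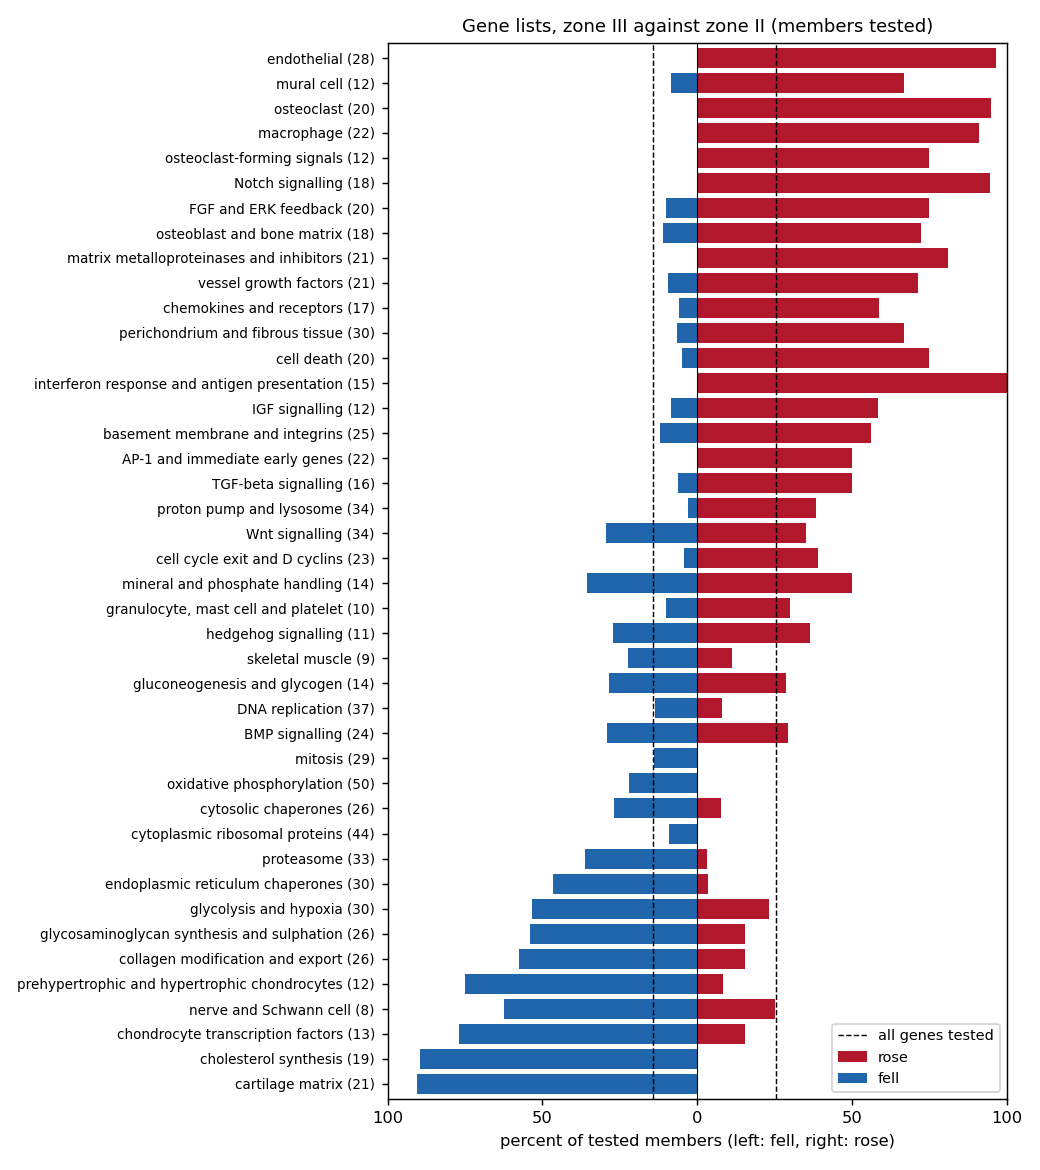
Percent of tested members of 42 gene lists with at least 8 tested members that fell (left, blue) or rose (right, red) in zone III, ordered by the list's median log2 difference, with the number tested in brackets and dashed lines at the 14.3% and 25.4% of all genes tested. From the top the order is endothelial, mural cell, osteoclast, macrophage, osteoclast-forming signals and Notch, and cartilage matrix and cholesterol synthesis lie at the bottom.

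Genes that build sulphated proteoglycans, the charged sugars of cartilage matrix, were mostly lower as deposited. Of 26 tested genes of glycosaminoglycan synthesis and sulphation 14 fell and 4 rose (median −0.69). With ribosomal protein centring 11 fell and 6 rose (median −0.24). Slc26a2, the sulphate importer of chondrocytes, had 1626, 1905, 2319 and 2276 in zone II and 206, 184, 177 and 162 in zone III, an 11.1-fold fall (limma adjusted p = 3.9e-08). Papss2, which makes the activated sulphate, fell 7.37-fold from 3712 ± 166 to 504 ± 34.2, and the chondroitin sulphotransferase genes Chst11 and Chst12 fell by 2.14 and 2.64. Has2, a hyaluronan synthase, and Slc35d1, which carries nucleotide sugars into the endoplasmic reticulum, fell by 2.67 and 2.65. The 4 members that rose as deposited were Chst15 and Chst13, which are sulphotransferases too, Ext1, a heparan sulphate polymerase, and Hs6st2. Chst15 read 282, 246, 260 and 372 in zone II and 933, 822, 868 and 1151 in zone III, a 3.27-fold rise. Ext2, the partner of Ext1, lay at −0.46 and did not pass.

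Collagen processing was divided between its members: 15 of 26 fell and 4 rose (median −0.80). With ribosomal protein centring 11 fell and 7 rose (median −0.35). Colgalt2, a collagen galactosyltransferase, fell 11.4-fold, from 918 to 1176 down to 73.3 to 118. Plod2, a lysyl hydroxylase, fell 3.45-fold, and the prolyl hydroxylase genes P4ha1, P4ha2 and P4ha3 fell by 1.11, 1.62 and 2.53. Lox, which crosslinks collagen and elastin outside the cell, rose 7.16-fold, with 534, 274, 245 and 323 in zone II and 2722, 2218, 2338 and 2146 in zone III. Its relative Loxl1, the procollagen proteinase gene Bmp1 and Creb3l1, a transcription factor that osteoblasts use for type I collagen, rose 2.73-fold, 2.68-fold and 3.50-fold. Serpinh1, the collagen chaperone, lay at −0.54 and did not pass.

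Of 30 chaperones and stress genes of the endoplasmic reticulum 14 fell and 1 rose (median −0.58). Creld2 read 1456, 1396, 1498 and 1429 in zone II and 701, 673, 708 and 518 in zone III, Pdia6, a disulphide isomerase, fell 2.16-fold, and Fkbp11 fell by 1.81. The falls of this list are small and lean on the scale: 10 members fell with quantile normalization and 4 with ribosomal protein centring. Hspa5, the chaperone BiP, read 4655 to 4851 in zone II and 2971 to 3661 in zone III, which do not overlap, but at 1.45-fold it did not reach the threshold, while another of its 3 probe sets fell by 0.76. Some of these genes share a promoter sequence, and 2 of the promoters are printed because they show it in opposite orientations in genes that fell. The endoplasmic reticulum stress element, searched on both strands as CCAAT, 9 bases of any kind and then CCACG (its first bases are also the CCAAT box), was found in the promoters of 8 of the 27 members that have one in the RefSeq table (GRCm38.p6, 250 bases before to 50 after the gene's start), against 0.119% of all 32851 promoters. Of those 8 genes 3 fell, Creld2, Pdia6 and Hsp90b1, and 5 did not pass. The 150 bases before the start of Creld2 (chr15:88819496-88819645, plus strand) and of Pdia6 (chr12:17266439-17266588, plus strand) read as follows, with the match in capitals.
Creld2: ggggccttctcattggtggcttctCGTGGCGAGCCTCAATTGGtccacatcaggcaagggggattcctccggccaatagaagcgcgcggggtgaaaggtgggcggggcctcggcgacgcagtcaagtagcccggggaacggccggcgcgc
Pdia6: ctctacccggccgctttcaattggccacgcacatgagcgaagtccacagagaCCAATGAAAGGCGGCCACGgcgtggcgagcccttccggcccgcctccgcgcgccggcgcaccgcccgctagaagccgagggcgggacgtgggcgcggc

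Cholesterol synthesis fell almost throughout. Of 19 tested genes 17 fell and none rose (median −1.31), and 12 fell and 1 rose with ribosomal protein centring. Sc5d, which acts late in the pathway, read 1052, 1214, 915 and 893 in zone II and 198, 152, 197 and 179 in zone III, a 5.60-fold fall (limma adjusted p = 4.4e-08). Msmo1, Idi1 and Cyp51 fell 4.30-fold, 3.40-fold and 3.48-fold, and Hmgcs1 and Sqle, early and rate-setting steps, fell by 0.85 and 1.08. Srebf2, the transcription factor of the pathway, lay at 0.22 and Ebp at −0.29, and neither passed. All 16 members with a RefSeq promoter held a CCAAT box (searched as CCAAT on both strands), a common element found in 37.4% of all promoters, and 14 of the 16 fell. A form of the sterol element, TCACNCCAC, was in 1 of the 16, Hmgcs1, and in 1.24% of all promoters. The promoters of 3 genes that fell are printed to show where the box lies, within 45 bases of the start, with each match (CCAAT, or ATTGG where it is on the other strand) in capitals. They cover the 150 bases before the start of Sc5d (chr9:42264301-42264450, minus strand), Idi1 (chr13:8885456-8885605, plus strand) and Cyp51 (chr5:4104698-4104847, minus strand).
Sc5d: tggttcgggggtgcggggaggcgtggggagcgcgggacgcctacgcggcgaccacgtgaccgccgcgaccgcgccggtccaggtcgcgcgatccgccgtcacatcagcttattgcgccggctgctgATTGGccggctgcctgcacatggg
Idi1: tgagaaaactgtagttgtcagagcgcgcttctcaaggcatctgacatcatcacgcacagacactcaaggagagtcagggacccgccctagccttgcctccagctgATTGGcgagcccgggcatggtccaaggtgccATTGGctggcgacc
Cyp51: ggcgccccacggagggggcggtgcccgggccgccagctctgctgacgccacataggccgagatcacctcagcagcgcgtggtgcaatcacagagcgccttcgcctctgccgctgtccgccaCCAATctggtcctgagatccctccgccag
In all 13 motifs were searched in 15 pairings with lists, and a match is a run of letters, not a shown binding site. In every search a member counted where any of its promoters matched, while the share of all promoters counts each promoter singly. The shares are therefore not like for like where a gene has several promoters. Several searches found little: TGACATCA was in 0 of the 27 endoplasmic reticulum promoters and CATTCCT in 0 of 17 of the AP-1 list. CACGTG was in 9 of 25 promoters of the proton pump and lysosome list, 7 of them of genes that did not pass, against 7.15% of all promoters.

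As deposited, 16 of 30 tested genes of glycolysis and hypoxia fell and 7 rose (median −0.63). With ribosomal protein centring 8 fell and 7 rose (median −0.17), so the balance depends on the scale. Slc2a1, the main glucose importer, had 3217, 2962, 2904 and 3245 in zone II and 1070, 949, 1114 and 1187 in zone III, a 2.86-fold fall. The lactate exporter gene Slc16a3 fell 5.16-fold, Aldoc fell 4.46-fold, and Pkm and Ldha, the last steps from glucose to lactate, fell by 1.07 and 0.66. Epas1, a hypoxia factor of endothelial cells, rose 4.76-fold from 288 ± 62.0 to 1355 ± 158 (SD, n = 4 arrays), and Slc2a3, a further glucose importer, rose by 1.31. Of 14 glycogen genes 4 fell and 4 rose as deposited, 28.6% each, against 14.3% and 25.4% of all genes. With quantile normalization or with median centring 5 fell and 1 rose. The summed signal of these genes was 10195 to 10535 in zone II and 4571 to 5078.5 in zone III. Pygl, which breaks glycogen down, fell 6.46-fold, from 2813 to 3296 down to 388 to 561, and Ugp2, which supplies its building block, fell 3.34-fold.

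**Figure D4:**
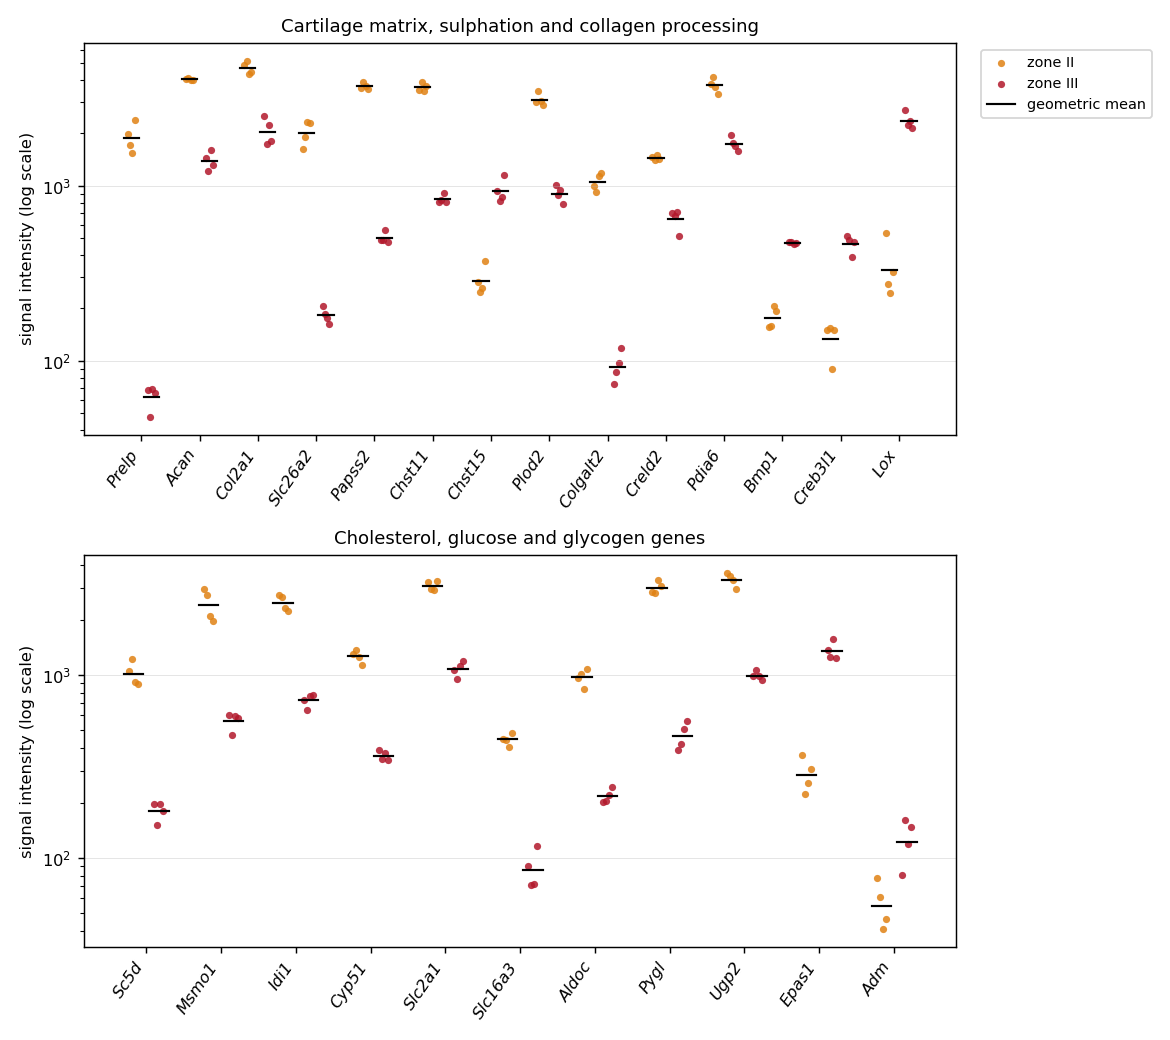
Signal intensity (log axis) of 14 genes of matrix, sulphation and collagen processing (top) and 11 genes of cholesterol and glucose metabolism (bottom), with orange dots for the 4 arrays of zone II, red dots for the 4 of zone III and bars at geometric means. Chst15, Bmp1, Creb3l1, Lox, Epas1 and Adm lie higher in zone III and the other 19 genes lower.

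The brightest genes of general metabolism lay below 0 by nearly equal amounts, and here the scale decides the direction. The 44 tested ribosomal protein genes had a median of −0.47 with 4 falls and no rise, the 50 genes of oxidative phosphorylation −0.42 with 11 falls, the 33 proteasome genes −0.48 with 12 falls and 1 rise (the interferon-inducible Psme1), and 26 cytosolic chaperones −0.45 with 7 falls and 2 rises. With quantile normalization those medians were −0.02, −0.02, −0.15 and −0.04, and with ribosomal protein centring −0.02, 0.04, −0.02 and 0.00, and no direction is given for these groups.

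Osteoclast genes rose nearly without exception, with 19 of 20 tested members higher, none lower and a median of 2.62. Ocstamp, a membrane protein of osteoclast fusion, read 15.2, 3.65, 3.06 and 3.87 in zone II and 512, 340, 463 and 485 in zone III. Ctsk, the collagen-cutting protease of osteoclasts, rose 14.4-fold from 248 ± 88.8 to 3416 ± 233 (SD, n = 4 arrays), Itgb3, a chain of their adhesion receptor, rose 24.3-fold, and Calcr, the calcitonin receptor, rose by 4.24. Snx10, which osteoclasts need for acid secretion, rose 22.9-fold. The exception depends on the probe set: the brighter one of Tnfrsf11a, the receptor RANK itself, read 41.8 to 66.4 in zone II and 54.5 to 86.6 in zone III and did not pass, while the other rose by 2.69 from a mean of 16.8 to 102, and 20 of 20 members rose when each gene was taken as the median over its probe sets. Of 12 genes of the signals that form osteoclasts 9 rose and none fell. The ligand RANKL (Tnfsf11) read 97.3, 52.3, 78.5 and 63.5 in zone II and 905, 815, 914 and 1080 in zone III, Csf1 and its receptor Csf1r rose 5.38-fold and 9.89-fold, and the decoy receptor Tnfrsf11b lay at −0.32 and did not pass.

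The proton pump rose in some of its subunits: of 34 genes of the pump and the lysosome 13 rose and 1 fell (median 0.34). Beside Atp6v0d2 of the osteoclast list, Atp6v0a1 and Atp6v1b2 rose by 2.43 and 2.30 and Atp6v1c1 by 0.81, while Atp6v1a, Atp6v1e1 and Atp6v0d1, at 0.35, 0.17 and 0.12, did not pass, although a dimmer probe set of Atp6v1a rose by 0.61. The cathepsin genes Ctss and Ctsc rose by 3.58 and 3.21, and Ctsz fell 1.84-fold from 3305 ± 152 to 1807 ± 228.

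Of 29 macrophage genes 22 were tested, of which 20 rose and none fell (median 2.34), and 7 lay under the floor of 50 in both zones, among them Fcgr1 at means of 32.6 and 30.3 and Itgam at 4.66 and 6.34. With no filter 24 of the 29 rose. The tested members had summed signals of 1771 to 2522 in zone II and 8762 to 10737 in zone III. Cd68 read 62.7, 27.9, 25.6 and 31.8 in zone II and 1007, 1078, 988 and 890 in zone III. Ptprc, the leukocyte antigen CD45, rose 19.6-fold and Mpeg1 by 4.06. The macrophage antigen gene Adgre1, which osteoclasts lose, lay at 0.48, with 150 to 229 in zone II and 250 to 317 in zone III, and did not pass. Many of these genes are also expressed by osteoclasts, so the lists do not separate the cell types. Other blood cells were represented thinly: of 20 granulocyte, mast cell and platelet genes with a named probe set 10 were tested and 3 rose, Kit, Prtn3 and Pf4, and of 13 lymphoid genes 2 were tested, of which 1 rose and 1 fell. Among chemokines and their receptors 10 of 17 rose and 1 fell. Ccl3 and Ccl9 rose by 5.12 and 4.19, Ccr1, which both bind, rose 24.2-fold, and Cxcl12, which holds blood-forming cells in the marrow, rose 7.35-fold with 188 on zone II array A against 43.9 to 61.7 on the other zone II arrays. Of 27 genes of the interferon response and antigen presentation 15 were tested, and these 15 rose (median 1.01), while 9 rose with median centring. The other 12 lay under the floor in both zones, among them Usp18 at means of 37.6 and 27.2 and Ifit1 at 16.9 and 19.3, and with no filter 20 of the 27 rose. Ifitm3, an antiviral membrane protein, read 246, 124, 93.8 and 111 in zone II and 1141, 1295, 1118 and 1046 in zone III, and H2-K1, a class I antigen, rose 2.08-fold. H2-D1 has probe sets that passed in both directions, and its rise of 3.50 rests on the brightest of them.

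Endothelial genes rose in 27 of 28 cases, none lower, with a median of 2.96. Their summed signal was 3559 on zone II array A, 2244 to 2358 on the other zone II arrays and 12112 to 13114 in zone III, and 27 members rose without zone II array A as well. Kdr, the main receptor for vascular endothelial growth factor, had 84.6, 69.7, 76.5 and 50.8 in zone II and 551, 495, 533 and 472 in zone III, a 7.40-fold rise. Emcn, a sialomucin of capillaries and veins, rose 8.21-fold, Cdh5, the endothelial cadherin, rose 8.82-fold, and Icam2 and Mmrn2 rose by 4.52 and 4.54. Erg, a transcription factor that endothelial cells share with cartilage, read 427 to 531 in zone II and 528 to 576 in zone III and did not pass. Of 16 genes of mural cells, the contractile cells on small vessels, 12 were tested, of which 8 rose and 1 fell. Pdgfrb, their growth factor receptor, rose 21.6-fold from 72.3 ± 25.9 to 1501 ± 83.7, and Kcnj8, a potassium channel subunit, from 4.08 to 14.8 up to 172 to 227. Acta2, smooth muscle actin, lay at 0.36 with overlapping arrays, and Cspg4 fell by 1.10.

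Factors that act on vessels rose with them, in 15 of 21 cases, while 2 fell (median 1.22). Vegfa, the growth factor of hypertrophic cartilage, read 177, 185, 187 and 215 in zone II and 421, 359, 474 and 544 in zone III, a 2.33-fold rise. Its relatives Vegfc and Pgf rose by 4.71 and 5.14 from signals of 5.90 to 28.6 and 2.30 to 8.59. Angpt1 and Angpt2, ligands of the Tie receptors' pathway, rose by 2.95 and 2.93. Thbs1, a thrombospondin that inhibits vessel growth, read 493, 381, 423 and 482 in zone II and 63.2, 40.6, 46.7 and 49.6 in zone III, an 8.96-fold fall, while Thbs2 rose by 1.55. Of 25 genes of basement membranes and integrins 14 rose and 3 fell. Col4a1 and Col4a2, the collagen chains of vessel basement membrane, rose by 3.08 and 3.02, and Nid2 fell by 1.48.

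Osteoblast and bone matrix genes rose in 13 of 18 cases and 2 fell (median 1.35), with a graded pattern among the members. Phex, an osteocyte and osteoblast enzyme that restrains phosphate loss, had 114, 81.1, 75.7 and 109 in zone II and 1714, 1699, 1808 and 2012 in zone III, and Dmp1, a mineral-binding matrix protein, rose 15.9-fold. Mepe and Col24a1, a matrix phosphoprotein and a minor fibril collagen, rose 9.32-fold and 7.97-fold. Col1a1, a chain of type I collagen, rose 4.83-fold from 828 ± 343 to 3792 ± 124 (SD, n = 4 arrays), while for Col1a2, the other chain, the brightest of 3 probe sets read 2942 to 4191 in zone II and 3233 to 4464 in zone III and did not pass, and both others rose, by 1.43 and 2.73. Sp7, a transcription factor of osteoblasts, rose only 1.52-fold. Car12, a carbonic anhydrase held in this list, fell 15.5-fold. Mineral handling was divided, with 7 of 14 higher and 5 lower. Alpl, the phosphatase that permits mineralization, rose 6.12-fold, Ank, a pyrophosphate transporter, rose 7.66-fold and Enpp6 rose by 3.90. Smpd3, a sphingomyelinase of mineralizing tissue, fell 4.07-fold from 2475 ± 189 to 610 ± 65.6, and Trpv4, a calcium channel of chondrocytes, fell 7.87-fold.

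Genes of the perichondrium and of fibrous tissue rose in 20 of 30 cases and fell in 2 (median 1.08). Fap, a fibroblast protease, read 192, 99.8, 123 and 128 in zone II and 2120, 2270, 2086 and 2008 in zone III, and Tnc, a matrix protein of developing connective tissue, rose 10.6-fold. Col3a1, an abundant fibroblast collagen, lay at 0.50 on its brighter probe set, which did not pass, and rose by 0.90 on the other, and Lum fell 1.57-fold. Skeletal muscle left little signal: 9 of 22 genes were tested, 1 rose and 2 fell. Nerve and Schwann cell genes were divided: of 16 with a named probe set 8 were tested, of which 5 fell and 2 rose. With no filter 6 fell and 3 rose. The falls were led by S100b, Mbp and Pmp22 (−3.47, −2.56 and −1.73), of which S100b is also a gene of chondrocytes. The 2 that rose as deposited were Gap43 and Prph, and 1 rose with quantile normalization or median centring. The summed signal of the 8 genes was 8168 to 8716 in zone II and 1876 to 2201 in zone III. That sum includes S100b, at means of 2768 and 261, and does not stand for every member. The part of these neighbouring tissues in other results was not tested.

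Enzymes that cut the matrix rose, 17 of 21 together with their inhibitors, and none fell (median 1.29). Mmp13, the collagenase of late hypertrophic cells and osteoblasts, had 1387, 957, 753 and 835 in zone II and 3590, 3200, 3256 and 3318 in zone III, a 3.49-fold rise (limma adjusted p = 2.0e-05). Mmp14, the membrane-bound collagenase, rose 5.82-fold, Mmp11 by 2.93, and Mmp10 from 5.95 to 9.88 up to 63.5 to 100. Adamts5, an aggrecanase, rose by 3.59, from 2.48 to 35.4 up to 87.1 to 142. The inhibitors Timp1, Timp2 and Timp3 rose by 0.67, 1.09 and 1.29, and Mmp2, a gelatinase, lay at 0.14 and did not pass. Of the 15 members with a RefSeq promoter 3 held the AP-1 element, searched as TGANTCA on both strands, against 7.81% of all promoters: Mmp13, Mmp10 and Adam19, which rose. The same letters were in 0 of 13 promoters of the osteoclast list, where 19 of 20 tested members rose. The promoter of Mmp13 is printed because Mmp13 is the collagenase of the hypertrophic cells themselves (chr9:7272364-7272513, plus strand, 150 bases before the start, the match in capitals).
Mmp13: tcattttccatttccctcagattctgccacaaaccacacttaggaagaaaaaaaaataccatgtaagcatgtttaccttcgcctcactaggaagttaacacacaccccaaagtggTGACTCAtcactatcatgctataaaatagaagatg

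Genes that AP-1 and early growth signals are known for rose in 11 of 22 cases and none fell (median 0.63). Fosl2, a Fos relative active in bone cells, read 182, 163, 104 and 109 in zone II and 954, 866, 954 and 770 in zone III, a 6.50-fold rise. Egr3, Egr2 and Junb rose by 3.43, 2.35 and 1.92. Fos, whose mRNA is short-lived, read 1304 to 2900 in zone II and 2199 to 3163 in zone III, which overlap, and did not pass, nor did Jun (0.39) or Myc (0.03).

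The feedback genes of the FGF and ERK pathway rose together while its chondrocyte receptor fell. ERK is the kinase that fibroblast growth factors and other signals switch on, and Dusp and Spry genes are induced by it and limit it. Of 20 tested members 15 rose and 2 fell (median 1.60). Dusp4, a phosphatase of ERK in the nucleus, read 31.9, 10.2, 2.14 and 2.62 in zone II and 428, 433, 407 and 314 in zone III. Spry4 read 25.0, 7.03, 10.2 and 13.3 against 241, 262, 267 and 247, a 20.5-fold rise (limma adjusted p = 2.1e-07). Dusp5 and Dusp6 rose 18.4-fold and 9.33-fold, Spry1 and Spry2 by 1.65 and 1.12, and Etv5, a transcription factor of the pathway, by 2.10. The ligands Fgf7 and Fgf9 rose 11.5-fold and 5.02-fold, and the receptor Fgfr1 rose by 1.55. Fgfrl1, a receptor without a kinase, fell by 1.30 beside Fgfr3. The summed signal of the list overlapped between zones, at 7442 to 8745 in zone II and 7657 to 8049 in zone III.

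Notch genes rose in 17 of 18 cases and none fell (median 2.06), and in 14 with median centring. Notch receptors on one cell are switched on by ligands on its neighbour and induce Hes and Hey genes. The ligand Jag1 read 27.4, 8.72, 18.0 and 5.12 in zone II and 168, 216, 189 and 212 in zone III, and the ligand Dll4 rose 1.66-fold. The receptors Notch1, Notch3 and Notch4 rose by 2.27, 2.93 and 4.08, and Notch2 lay at 0.55 and did not pass. Among targets Hey1, Hey2 and Heyl rose 7.86-fold, 10.4-fold and 24.5-fold, Hes1 rose 5.58-fold, and Nrarp, a feedback inhibitor, rose 7.56-fold. Notch4, Dll4, Hey2 and Heyl are also known from vessels, and the rise of the endothelial and mural lists goes with theirs; its part was not tested.

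**Figure D5:**
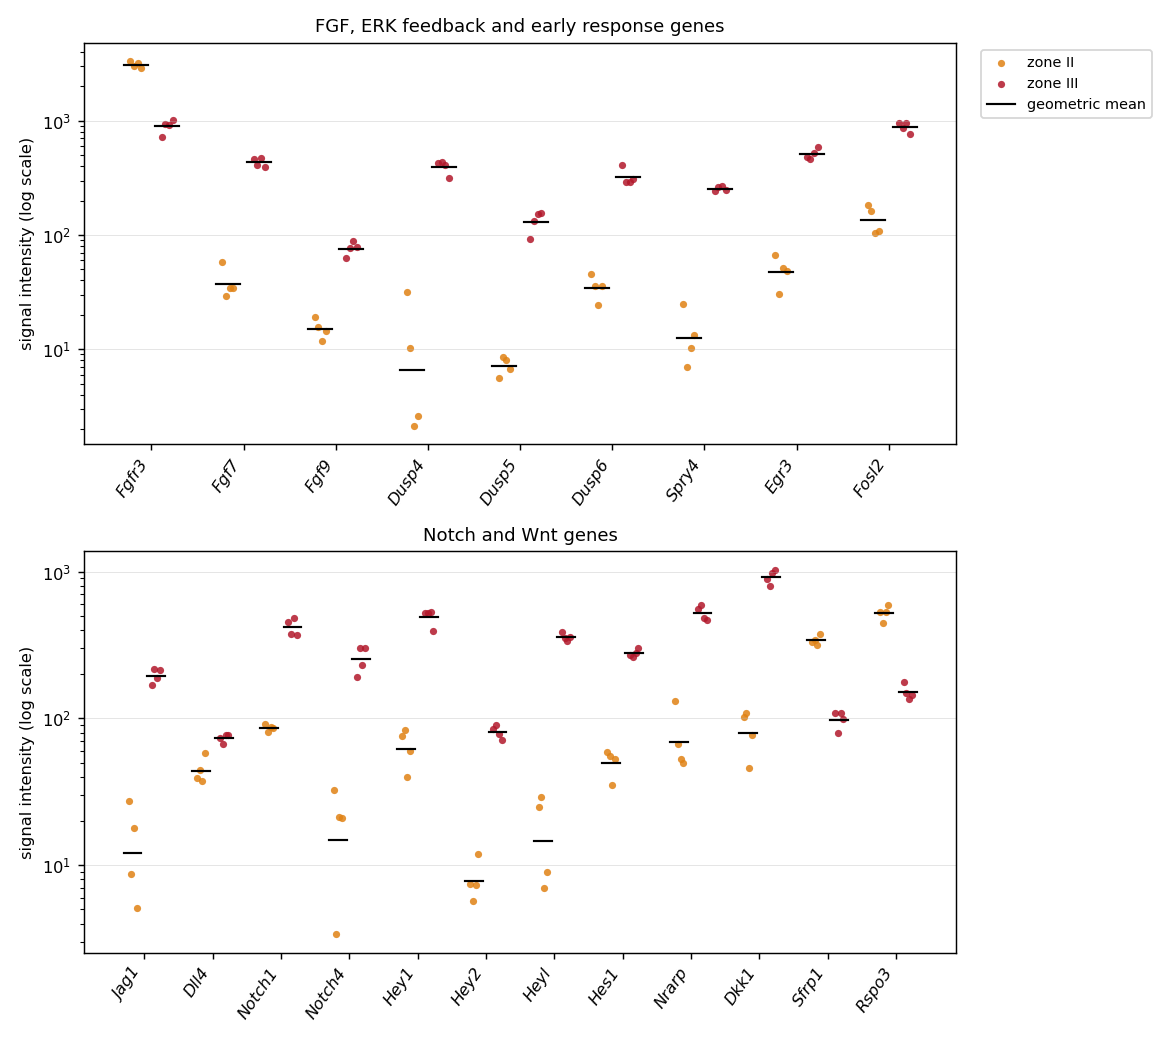
Signal intensity (log axis) of 9 FGF, ERK feedback and early response genes (top) and 12 Notch and Wnt genes (bottom), with orange dots for the 4 arrays of zone II, red dots for the 4 of zone III and bars at geometric means. Fgfr3, Sfrp1 and Rspo3 lie lower in zone III and the others higher, with no overlap of arrays in any of them.

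Wnt genes were divided, with 12 of 34 higher and 10 lower (median 0.31). With median centring 9 rose and 13 fell, and with ribosomal protein centring 18 rose and 8 fell. Dkk1, a secreted inhibitor, had 102, 109, 46.2 and 77.3 in zone II and 891, 801, 983 and 1032 in zone III, an 11.6-fold rise, and Dkk2 rose by 2.28. Another family of inhibitors ran the other way, as Sfrp1 and Sfrp5 fell 3.48-fold and 3.21-fold, while Sfrp4 rose by 1.09. The ligands Wnt11, Wnt5b and Wnt4 fell by 2.71, 1.53 and 1.16, and the enhancer Rspo3 fell 3.47-fold whereas Rspo2 rose by 1.16 with overlapping arrays. Axin2, a general target of the pathway, fell 2.17-fold, from 141 to 212 down to 75.0 to 105.

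Of 24 BMP genes 7 rose and 7 fell as deposited, 29.2% each, against 25.4% and 14.3% of all genes. With median centring 6 rose and 11 fell, and with ribosomal protein centring 10 rose and 3 fell, so the balance depends on the scale. Gdf10 and the antagonist Chrdl1 fell 12.8-fold and 8.52-fold and Gdf5, a joint factor, by 2.25, while Smad6, an inhibitor inside the cell, rose 7.09-fold. In the TGF-beta list 8 of 16 rose and 1 fell. Tgfbi, a matrix protein induced by TGF-beta, fell 4.80-fold from 2974 ± 466 to 617 ± 63.6, whereas Tgfb1 rose by 1.21, its receptor Tgfbr2 by 1.43 and Ltbp1, which stores it in the matrix, by 2.26. Of 12 IGF genes 7 rose and 1 fell. Igfbp3, a binding protein, read 197, 44.0, 41.7 and 33.7 in zone II and 1210, 1041, 1110 and 1132 in zone III, Igf1 rose by 1.68, and Irs1, which relays the signal in the cell, fell 2.05-fold. Among 6 pannexins and connexins Panx1 rose 6.92-fold and Gja1, the connexin of bone cells, 1.68-fold, and Panx3 was the member that fell as deposited. No member fell with quantile normalization or with ribosomal protein centring.

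Few genes of dividing cells passed the test. Of 37 DNA replication genes 3 rose and 5 fell (median −0.05). Of 29 mitosis genes none rose and 4 fell, but 26 of the 29 differences were below 0 (median −0.23), and the summed signal was 13621 to 15508 in zone II and 9736 to 12839 in zone III. The direction depends on the scale, as 10 mitosis genes fell with median centring while the median was 0.22 with ribosomal protein centring. Mki67, a marker of cycling cells, read 862 to 1343 in zone II and 863 to 1269 in zone III, and Cdk1 fell 1.87-fold. Genes of cell cycle exit rose in 9 of 23 cases and 1 fell. Cdkn2b, a cyclin kinase inhibitor, rose 14.1-fold, from 22.1 to 56.7 up to 440 to 529, whereas Cdkn1c, the inhibitor p57 of prehypertrophic cells, fell by 1.18. Of 20 cell death genes 15 rose and 1 fell (median 1.07). Bid, a killer protein of the Bcl2 family, read 2.23, 1.60, 1.66 and 1.88 in zone II and 103, 104, 93.7 and 92.6 in zone III, and Pmaip1 and Casp1, the latter an inflammatory caspase of macrophages, rose by 5.31 and 5.62 from signals of 0.92 to 1.62 and 0.52 to 13.8. Bcl2l11, another killer protein, rose 4.64-fold with 4 arrays of zone III between 619 and 626. Bcl2, the survival gene of the family, read 463, 471, 452 and 485 in zone II and 161, 153, 185 and 143 in zone III, a 2.92-fold fall.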

How the data were processed

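Values were taken from the table of signal intensities that the authors deposited, on a linear scale with the same trimmed mean of 150 on every array. The sources disagree on how the signals were made: the submitters' processing notes name RMA and the study's methods name its GC-corrected form in GeneSpring, and which gave the deposited scale was not settled. Intensities were log2 transformed and fitted with limma 3.58.1 in R 4.3.3 on all 12 arrays, with zone as the factor and zone III minus zone II as the contrast. Probe sets with a mean under 50 in both zones and Affymetrix controls were left out. The fit was tested on simulated data with known changes. Genes named in the text were the 5 markers, the 15 largest rises and the 15 largest falls, up to 4 called members per direction of each of 45 gene lists, and members whose role the text turns on; the other genes named were picked after their values were seen. The members and lists were chosen with earlier results of these data known. Promoters came from RefSeq (GRCm38.p6), 250 bases before to 50 after each start. Alternatives covered the filter, scaling, variance model, blocks, threshold, probe set choice and leaving out each array. Depth does not apply to arrays, whose number limits the precision.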

Additional observations from a re-analysis of the deposited data

Results flagged for a closer look

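Of 482 groups of 4 arrays, 1 for each named gene in each zone, 37 held an array whose gap to its nearest neighbour was large for the range of the group; chance alone gives about 1 in 20 groups. In 18 of the 37 the array was zone II array A. There, against the lowest and highest of the other zone II arrays, Casp1 read 13.8 against 0.518 to 1.43, Cd68 read 62.7 against 25.6 to 31.8 and Cdh5 read 84.2 against 33.8 to 36.3. Col1a1 read 1341 against 621 to 678, Col4a1 read 613 against 202 to 256 and Ctss read 154 against 33.3 to 47.7. Cxcl12 read 188 against 43.9 to 61.7, Dmp1 read 182 against 95.1 to 101 and Gas1 read 343 against 38.2 to 68.1. Has2 read 902 against 1573 to 1645, Igfbp3 read 197 against 33.7 to 44.0 and Mmp9 read 872 against 238 to 321. Ocstamp read 15.2 against 3.06 to 3.87, P4ha3 read 187 against 113 to 117 and Pak3 read 2157 against 2616 to 2695. Panx1 read 42.6 against 9.78 to 10.3, Pdgfrb read 111 against 56.7 to 63.7 and Pf4 read 180 against 59.5 to 78.2.

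The remaining flags were spread over other arrays, each against the lowest and highest of the other arrays of its zone. Ank read 203 on zone II array C against 265 to 274, Atp6v0d1 read 1149 on zone III array A against 1022 to 1026 and Bmp2 read 158 on zone II array B against 251 to 265. Casp1 read 125 on zone III array B against 83.2 to 89.8, Col10a1 read 1814 on zone III array B against 2475 to 2596 and Creb3l1 read 89.8 on zone II array C against 150 to 155. Csf1 read 604 on zone III array D against 511 to 521, Hey1 read 394 on zone III array D against 521 to 533 and Jun read 144 on zone II array C against 321 to 334. Junb read 28.9 on zone II array C against 85.5 to 96.6, Junb read 167 on zone III array C against 289 to 310 and Mmp14 read 2754 on zone III array A against 2323 to 2392. Msmo1 read 468 on zone III array B against 578 to 601, Papss2 read 555 on zone III array C against 479 to 492 and Prelp read 47.7 on zone III array B against 65.6 to 68.9. Psme1 read 520 on zone III array A against 578 to 585, Sox5 read 39.3 on zone III array C against 19.0 to 20.4 and Spry1 read 264 on zone III array C against 335 to 347. Tnfrsf11b read 209 on zone III array B against 158 to 165.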

How the results depend on the processing

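No call on a gene turned its direction under the scaling, filter, variance or block alternatives, nor when an array was left out, and 2 turned when a gene was described by the median of its probe sets. Of 241 genes named, 200 kept direction and side of the threshold in all 23 settings; Mef2d reversed, to −0.0449, with the median of its probe sets, and the cause was not tested. With median centring 5063 probe sets and 2844 genes fell. With ribosomal protein centring 9795 probe sets and 5302 genes rose and 1108 probe sets and 648 genes fell. With no fold threshold 4622 probe sets and 2671 genes fell. With limma's treat against 1.5-fold, a stricter test by construction, 2686 probe sets and 1644 genes rose and 1184 probe sets and 719 genes fell. Leaving out 1 array gave 2797 to 2984 genes and 4805 to 5172 probe sets that rose, and 1605 to 1716 genes and 2791 to 2979 probe sets that fell. Arrays of the same letter correlated at −0.02 to 0.23 in their deviations from the zone means, and 3 of 4 zone II arrays correlated best with their own letter, a hint of pairing in the data; array B did not, at −0.02, and the labels do not say what a letter stands for, so the letter was kept out of the model reported. With the letter as a replicate block 2924 genes rose and 1650 fell, and 4534 of 4557 calls were kept. Signals near the bottom of the scale and the number of arrays limit the precision.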
